A study of Mus musculus with 2 samples.

Results

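The 10 genes described here encode proteins of the spindle midzone and of cytokinesis, together with the spindle proteins and proliferation markers that appear with them. They are Prc1, Racgap1, Ect2, Anln, Cep55, Aspm, Tpx2, Nusap1, Birc5 and Mki67, chosen by symbol from the 33224 gene symbols in the authors' deposited table. Each member was found in 1 row of that table. Hepatic RNA came from C57BL/6 mice labelled as 4 months old, either wild type (WT) or PPARbeta-null (KO), killed 48 hr after partial hepatectomy (PH), the removal of a large share of the liver. There was 1 library per genotype, so no value below carries an error between mice and no test of genotype could be made. The mice were male. How the null allele was made, and whether an RNA sample came from 1 mouse or a pool, is not given in the sources used here.

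During mitosis the chromosomes are drawn apart along microtubules. Antiparallel microtubules between them are then bundled into the spindle midzone, which marks where the cell will divide. There, centralspindlin recruits a RhoA exchange factor, RhoA builds an actin and myosin ring, and the ring closes down to a thin bridge, the midbody, that is finally cut. RhoA, actin and myosin serve every cell, whereas the mRNAs of proteins made for division, such as the members, appear mainly in G2 and mitosis and are scarce in resting cells. Adult hepatocytes rest outside the cell cycle but re-enter it after PH, and rodent hepatocytes often skip cytokinesis, which gives polyploid cells with 1 or several nuclei.

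Levels are in FPKM, fragments scaled to exon length and to the size of the library, as estimated by the authors per locus. The tallest peak among low values of single-exon genes was taken as 1 fragment, from which 1 FPKM on a transcript of 1 kb rested on about 54.4 fragments in WT and 55.3 in KO. Ppard, the targeted gene, was read at 2.67 FPKM in WT against 2.42 in KO. Its WT/KO ratio was 1.10 (95% counting interval 0.966 to 1.26, and 0.936 after centring), so its level over all exons gave no check of the genotype labels, and a deletion within the locus was not analysed here. Genes are called expressed where the FPKM of both libraries averaged 1 or more, and over these 11723 genes log2 KO/WT had a median of -0.24, a WT/KO ratio of 1.18. Ratios below are from FPKM as deposited and are to be read against that shift, which centring takes out. The table names a different sequencing lane for each genotype, so lane and genotype cannot be told apart.

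Many late cell cycle promoters carry the cell cycle homology region (CHR), 6 letters bound by the MuvB complexes that keep such genes silent in resting cells and later switch them on. RefSeq promoters (GRCm38.p6) were held for 9 of the 10 members, Tpx2 being the one without. The letters TTTGAA were searched on both strands, and the stretches below show where they fell. Capitals mark a single copy of the CHR on each line, and a second copy within the Anln stretch is left in lower case. Each line reads 5′ to 3′ along the gene.
Prc1 (chr7:80294434-80294463, plus strand): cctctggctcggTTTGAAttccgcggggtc
Racgap1 (chr15:99651634-99651663, minus strand): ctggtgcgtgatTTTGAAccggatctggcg
Ect2 (chr3:27153822-27153851, minus strand): cgactggattttTTTGAAtcggaggcggca
Anln (chr9:22389161-22389190, minus strand): tgaaattcaaatTTTGAAcggccgtggtag
Cep55 (chr19:38054996-38055025, plus strand, CHR on the other strand): acagccgcgggaTTCAAActcccggaagcg
Aspm (chr1:139454767-139454796, plus strand): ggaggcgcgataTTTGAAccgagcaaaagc
Mki67 (chr7:135716460-135716489, minus strand): ccgccgttttggTTTGAAtcgggcgggctg

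In these stretches the CHR of Prc1 began 5 bases before the start, and those of Racgap1, Aspm, Cep55 and Anln began at bases 6, 7, 25 and 29 counted from the start as base 1. Prc1, Ect2 and Cep55 have more than 1 annotated start, and positions are from the most upstream, except that the copy printed for Ect2 began at base 16 of its downstream start. In Ect2 another copy began 114 bases before the upstream start, in Anln a second began at base 22 on the other strand, and in Mki67 copies began 116 and 98 bases before the start. In the window from 250 bases before to 50 bases after the start, 7 of 9 members held the letters, against 20.2% of 27025 genes. That window was chosen after seeing the data. In the 250 bases before any annotated start, 4 of 9 members held them, against 18.3% of genes counted in the same way. Of these, Ect2 and Mki67 held them before the most upstream start, and Prc1 and Cep55 in full only before their downstream start. The CCAAT box (CCAAT on either strand) was present there in 5 of 9 members and in 37.5% of genes. The E2F letters TTCCCGC or TTGGCGC were present in 2 of 9 members, Ect2 and Mki67, and in 6.45% of genes, in Ect2 before the downstream start only. The members' promoters had a median GC content of 65.2%, against 52.0% over all genes. These matches describe letters and do not show binding.

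Mki67 had the largest WT/KO ratio of the members and Ect2 the smallest, and their 250 bases before the start are printed for that reason. Capitals mark the CHR, CCAAT box and E2F letters in either direction.
Mki67 (chr7:135716380-135716629, minus strand): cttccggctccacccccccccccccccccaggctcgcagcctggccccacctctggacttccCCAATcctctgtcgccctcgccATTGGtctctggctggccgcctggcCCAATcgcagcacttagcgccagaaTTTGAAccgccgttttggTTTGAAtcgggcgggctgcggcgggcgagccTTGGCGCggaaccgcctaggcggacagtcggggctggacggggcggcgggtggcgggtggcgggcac
Ect2 (chr3:27153879-27154128, minus strand): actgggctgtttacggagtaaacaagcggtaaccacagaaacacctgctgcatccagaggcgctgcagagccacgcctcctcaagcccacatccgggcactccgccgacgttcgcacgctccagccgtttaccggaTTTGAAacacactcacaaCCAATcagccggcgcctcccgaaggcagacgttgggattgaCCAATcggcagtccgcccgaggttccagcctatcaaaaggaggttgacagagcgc

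All 10 members had a higher FPKM in the WT library, as had 75.6% of expressed genes, and every member by more than 27-fold. WT levels ran from 1.51 to 25.5 FPKM with a median of 9.54, and KO levels from 0.0281 to 0.568 with a median of 0.0655. The sum over the 10 genes was 100.0 FPKM in WT and 1.19 in KO, with WT/KO at 84.0. The 2 ranges did not overlap, and 9 of the 10 KO levels were below 0.15 FPKM. More than 2-fold lower in KO were 10 of 10 members, whereas the share was 8.69% of expressed genes and 13.4% of genes averaging 0.1 FPKM or more, the filter that all 10 pass. None was higher in KO, against 1.77% of expressed genes past 2-fold in that direction. Past 4-fold lower were 10 of 10 members and 2.92% of expressed genes. Aspm, at a mean FPKM of 0.773, was the only member below the line for expressed genes. A fold above 16, a limit chosen after seeing the data, was passed by 10 of 10 members and 1.06% of expressed genes. In whole liver, fewer dividing cells and less of each mRNA per dividing cell cannot be told apart.

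**Figure D1:**
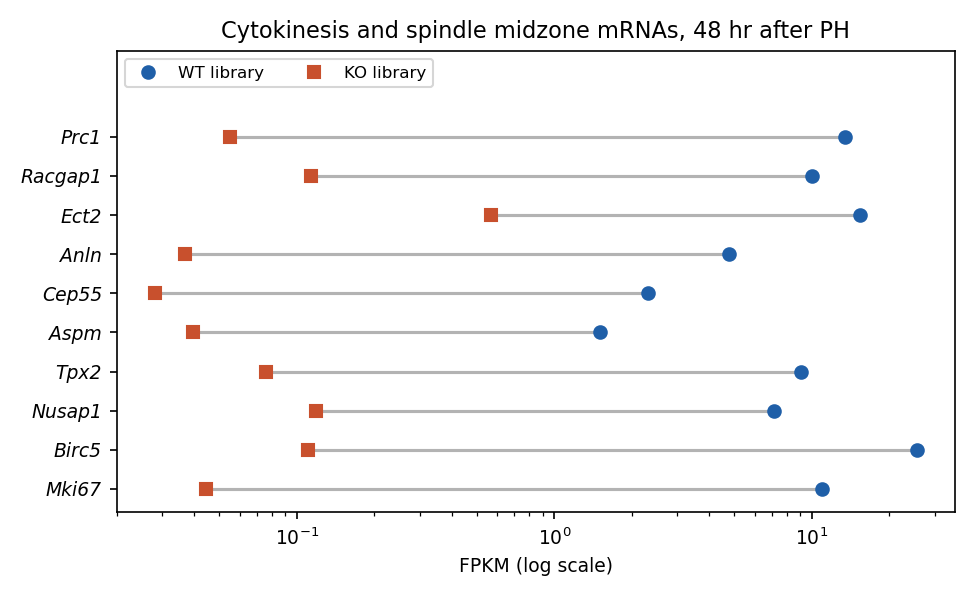
FPKM of each member (log scale) in the WT library (circles) and the KO library (squares), 1 library each, joined by a line. All WT points lie between 1.51 and 25.5 FPKM and all KO points between 0.0281 and 0.568.

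The 3 members that act first at the midzone are Prc1, Racgap1 and Ect2. Prc1 (chromosome 7, 87439220 to 87469340 on NCBIM37) crosslinks antiparallel microtubules and so makes the midzone bundle. It stood at 13.5 FPKM in WT, about 2237 fragments, and at 0.0552 in KO, about 9, which gives a WT/KO ratio of 245 (95% counting interval 129 to 536). Its locus also overlaps the annotated genes Rccd1 and 6330403N20Rik. Racgap1 (chromosome 15, 99450927 to 99482087), the GTPase-activating subunit of centralspindlin, was at 10.0 FPKM in WT against 0.114 in KO (ratio 88.4, interval 56.4 to 147). Ect2 (chromosome 3, 26996144 to 27052800), the exchange factor that loads RhoA with GTP, stood at 15.4 FPKM in WT and 0.568 in KO. Its ratio of 27.1 (interval 22.7 to 32.6) was the smallest of the 10, since its KO level was the highest, with about 128 fragments against 3419 in WT. In the KO library Ect2 thus had more mRNA per length than the other 9 members, and in WT it was second to Birc5.

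Anln and Cep55 act later, at the ring and the midbody. Anln (chromosome 9, 22135658 to 22193650) encodes anillin, which ties RhoA, actin, myosin and septins together in the ring. WT held 4.78 FPKM of it and KO 0.0368, about 1409 and 11 fragments, and the ratio was 130 (interval 72.3 to 260). Cep55 (chromosome 19, 38129515 to 38148915) recruits the cutting machinery to the midbody. It stood at 2.31 FPKM in WT against 0.0281 in KO (ratio 82.4). With about 347 fragments in WT and 4 in KO, its interval of 31.9 to 304 was the widest in relative terms, and it had the lowest KO level of the 10.

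Aspm, Tpx2 and Nusap1 bind spindle microtubules. Aspm (chromosome 1, 141351350 to 141390667) focuses microtubules at the spindle poles and is known for human microcephaly. Its FPKM was 1.51 in WT, the lowest WT level of the 10, and 0.0395 in KO (ratio 38.1, interval 25.0 to 61.2). On its transcript of 9866 nt that low level still rested on about 808 fragments in WT and 22 in KO. Tpx2 (chromosome 2, 152673700 to 152721057), which activates Aurora A and starts microtubules near chromosomes, had 9.03 FPKM in WT against 0.0759 in KO (ratio 119, interval 75.1 to 201). Nusap1 (chromosome 2, 119435248 to 119477075) crosslinks spindle microtubules near chromosomes. It had 7.12 FPKM in WT against 0.119 in KO (ratio 60.1, interval 38.3 to 100.0). The Nusap1 locus is wider than the annotated gene and overlaps Oip5, so some fragments can belong to that gene.

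Birc5 and Mki67 are widely used as marks of dividing cells. Birc5 (chromosome 11, 117710565 to 117717069) encodes survivin, the subunit that places the chromosomal passenger complex on centromeres and later on the midzone. It had the highest WT level, 25.5 FPKM, against 0.111 in KO (ratio 229, interval 105 to 624). On a transcript of 947 nt, the shortest of the 10, these levels were about 1312 and 6 fragments. Mki67 (chromosome 7, 142881470 to 142908090) encodes Ki-67, which coats mitotic chromosomes and is absent from resting cells. On a transcript of 10075 nt it reached 10.9 FPKM in WT, about 5998 fragments, against 0.0445 in KO, about 25 (ratio 246, interval 167 to 381). Mki67 thus had more fragments in both libraries than Prc1, Birc5, Anln and Tpx2, the members nearest to it in ratio.

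The 10 ratios spanned 9.09-fold, from Ect2 over Aspm, Nusap1, Cep55, Racgap1, Tpx2, Anln, Birc5 and Prc1 to Mki67. No neighbours in this order stood apart, since the counting intervals overlapped for each of them. Among all 45 pairs the intervals did not overlap for 16. Ect2 was below Nusap1, Racgap1, Tpx2, Anln, Birc5, Prc1 and Mki67 in this way. The ratios of Birc5, Prc1 and Mki67, from 229 to 246, could not be ordered. These intervals cover counting error only, with fragments estimated from the depth and the annotated transcript. Between 20 genes, for Mki67, and 102 genes, for Ect2, of the 11723 expressed genes had a larger ratio or no fragments in KO. Among genes above 0 in each library, the members stood between the percentiles 43.6 and 86.1 in WT and between 10.0 and 36.3 in KO.

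**Figure D2:**
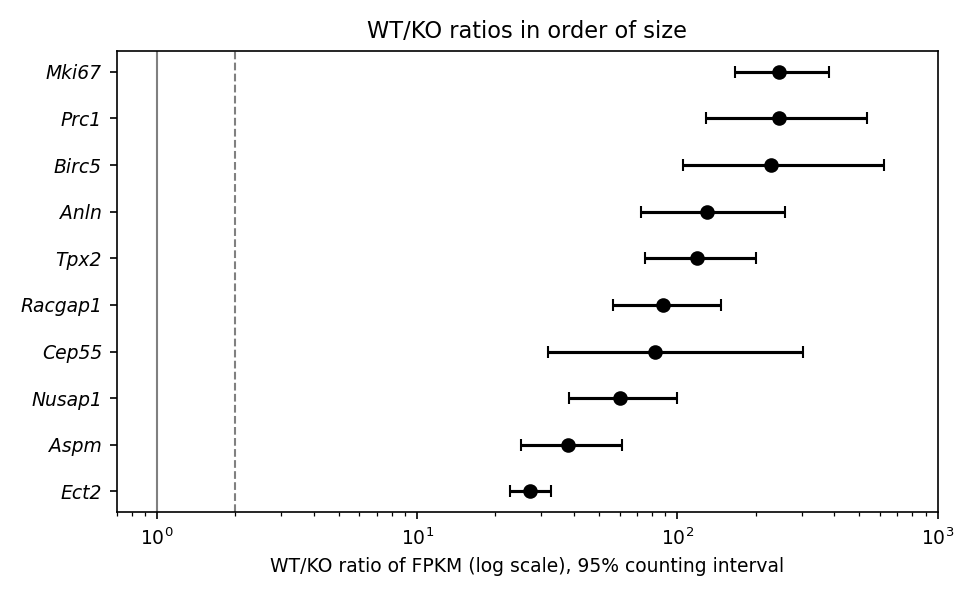
WT/KO ratio of FPKM (log scale) of each member, from the smallest at the bottom to the largest at the top, with bars for the 95% counting interval and lines at ratios of 1 and 2. All intervals lie above 20, and those of neighbouring genes overlap.

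**Figure D3:**
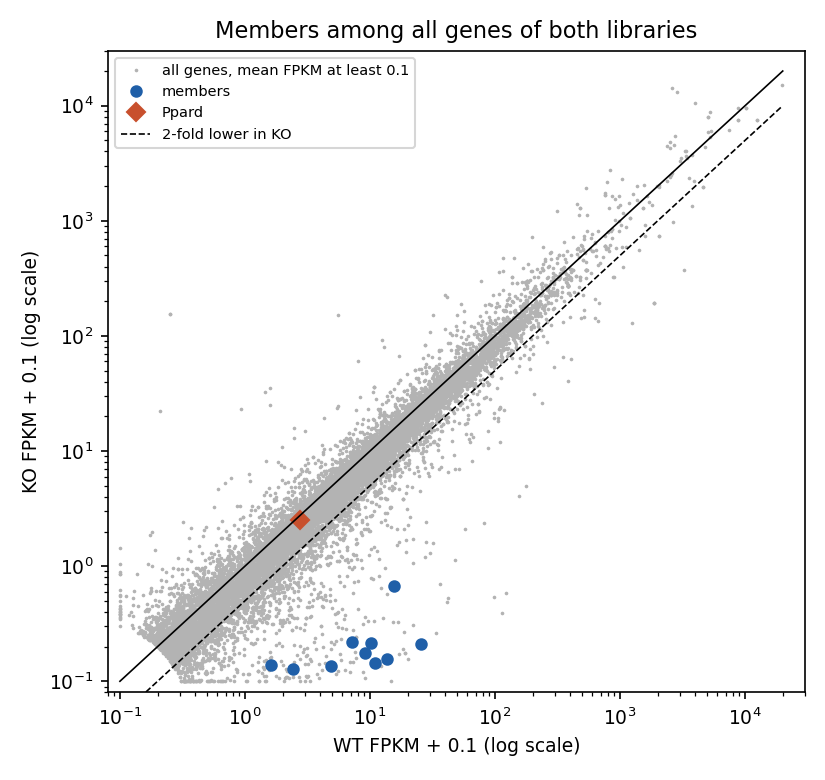
FPKM plus 0.1 in the WT library against the KO library (log scales) for genes averaging 0.1 FPKM or more (grey), the 10 members (blue) and Ppard (orange diamond). The members lie far below the dashed line of a 2-fold lower KO level, whereas Ppard, at 2.67 and 2.42 FPKM, lies near the line of equal levels.

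Among 12 midzone partners, the kinesins, passenger subunits and kinases that work with the members, 10 were more than 2-fold lower in KO and none higher. Of all genes averaging 0.1 FPKM or more, 13.4% were more than 2-fold lower. This share is to be set beside the counts of all lists below. The median log2 KO/WT of the 12 partners was -4.05, beside -5.36 for the members and -0.24 for expressed genes. All log2 values here have a pseudocount of 0.1 FPKM. Kif23, the motor subunit of centralspindlin and partner of Racgap1, had 3.05 FPKM in WT and 0.0956 in KO (ratio 31.9). Kif20a, which carries the passenger complex to the midzone, had 12.6 and 0.251 (ratio 50.3), and Kif20b, whose row the authors' program marked as failed, had 2.80 and 0.0782 (ratio 35.8). The Kif20a locus is wider than the annotated gene and overlaps Brd8 and Cdc23, so some fragments can belong to those genes. Kif4, the motor that works with Prc1 at microtubule ends, had 3.01 FPKM in WT and about 3 fragments in KO, with WT/KO at 324 (interval 110 to 1570). Kif14, which binds Prc1 and citron kinase, had 0.659 FPKM in WT and about 1 fragment in KO, with WT/KO at 286 (interval 50.9 to 11300). The other passenger subunits, like Birc5, were far lower in KO. The ratio was 89.5 for Aurkb, the kinase of the complex, 22.8 for Incenp, its scaffold, and 45.4 for Cdca8, also called borealin. Plk1, the kinase that prepares centralspindlin for binding Ect2, was at 13.3 FPKM in WT against 0.0674 in KO (ratio 198, interval 100.0 to 458). Cit, the citron kinase of the ring and midbody, differed less, at 0.276 and 0.104 FPKM (ratio 2.66). Its interval of 1.83 to 3.93, on about 105 and 40 fragments, reached below 2. Clasp1 and Clasp2, which steady microtubule ends in resting and dividing cells alike, had ratios of 1.48 and 1.54 and were the 2 partners not past 2-fold.

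The ring below the membrane is built mostly from proteins that every cell uses. Of 21 genes of RhoA, its effectors, myosin, actin and septins, 2 were more than 2-fold lower in KO, 1 was higher and 18 were neither. The count of lower genes was near the share over all genes. That share was 8.69% of expressed genes and 13.4% of genes averaging 0.1 FPKM or more. The list's median log2 KO/WT was -0.33. Centring on the median of expressed genes brought that median to -0.09. The formins, which lengthen the actin filaments of the ring, differed among themselves. Diap3 was read at 4.07 FPKM in WT (about 1018 fragments) against 0.0257 in KO (about 7), which gives a ratio of 159 (interval 76.7 to 396). Diap1, in a row marked as failed, at 19.4 and 17.3 FPKM, and Diap2, at 3.02 and 2.70, both had a ratio of 1.12, which centring turned below 1. Rhoa itself, the GTPase that Ect2 activates, had 73.5 FPKM in WT and 59.4 in KO (ratio 1.24). The non-muscle myosin heavy chain Myh10 had 10.0 and 3.54 FPKM (ratio 2.83), beside 38.0 and 24.3 for Myh9 (ratio 1.57). Rhoa, Diap1, Diap2, Myh9 and Myh10 were chosen after their values were seen. Of the most abundant genes of this list, Actb had 307 and 313 FPKM, Pfn1 241 and 183, and Myl6, in a row that also names Myl6b, 201 and 178, a ratio of 1.13 that centring turned to 0.957. Actg1, with 97.0 FPKM in WT and 229 in KO, was the gene more than 2-fold higher in KO.

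None of 15 genes of the abscission machinery, the ESCRT proteins that cut the midbody and also serve endosomes, was past 2-fold in either direction. Their median log2 KO/WT was -0.11, and it turned to 0.13 after centring. Pdcd6ip (Alix), which Cep55 binds directly, had 35.6 FPKM in WT and 28.4 in KO (ratio 1.25), and Chmp4b, which forms the constricting filaments, had 29.8 and 27.6. The row of Chmp2a, with 91.2 and 89.1 FPKM, also names Ube2m. Centring turned the ratios of Chmp4b and Chmp2a from 1.08 and 1.02 to 0.916 and 0.868. Chmp4c, which delays the cut in response to Aurora B, had the largest ratio, 1.86, on 0.847 and 0.455 FPKM, and Chmp1b the smallest, 0.908. Cep55 and its direct partner thus stood at ratios of 82.4 and 1.25 in the same libraries.

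Of 17 spindle assembly genes that work beside Aspm, Tpx2 and Nusap1, 14 were more than 2-fold lower in KO and none higher. The list's log2 KO/WT had a median of -4.36. Aurka, the kinase that Tpx2 activates, had 16.8 FPKM in WT and 1.52 in KO, or 11.1 times less (interval 9.43 to 13.1), against 119 for Tpx2. Hmmr, a spindle pole protein that binds Tpx2, had 12.1 and 0.0367 FPKM, a ratio of 329 (interval 167 to 763). Cdk5rap2, a centrosome protein whose row also names Gm11226, had 14.4 and 9.56 FPKM. Gtse1, the gene of this list with the smallest ratio, 0.874, shares its row with Ttc38, so that value is of a joint locus. The importins, which hold Tpx2 inactive, and Ran with its regulators, which free it near chromosomes, were all lower in KO. Their ratios ran from 1.54 to 3.38, and 75.6% of expressed genes were lower in KO at any size. Of the 6 Ran and importin genes, 3 were past 2-fold, against 13.4% of genes averaging 0.1 FPKM or more. Their median log2 KO/WT was -1.01. Kpna2 had 59.1 and 17.5 FPKM (ratio 3.38), Kpnb1 52.0 and 25.2 (ratio 2.07), Rangap1 54.6 and 26.0 (ratio 2.10), and Ran 81.8 and 53.0 (ratio 1.54). After centring, Kpna2 alone stayed past 2-fold.

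**Figure D4:**
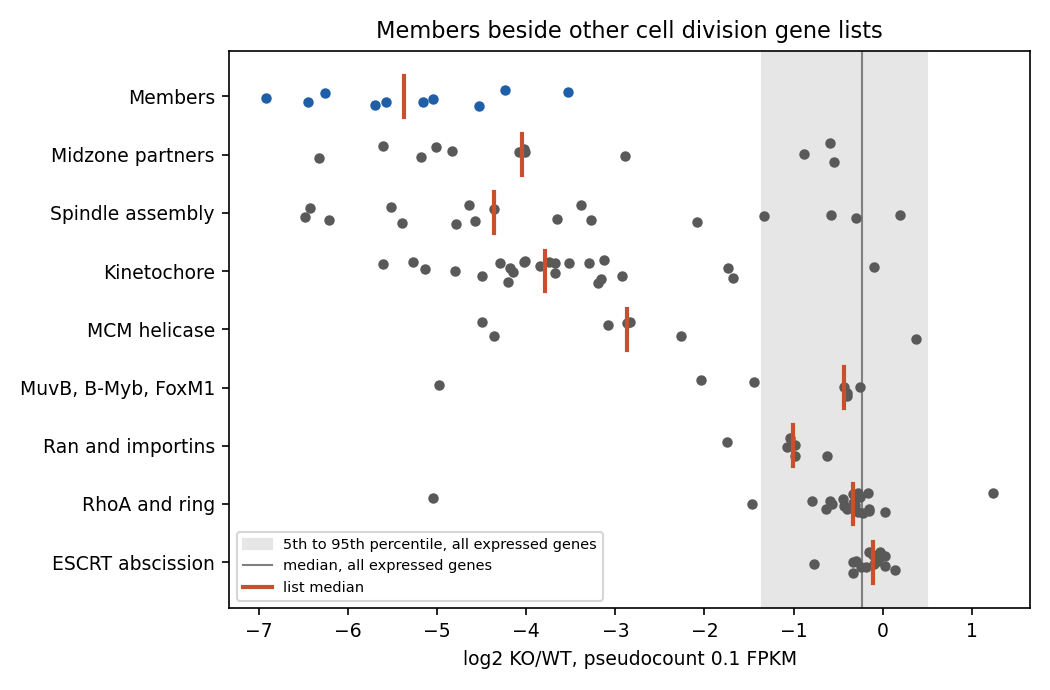
Log2 KO/WT (pseudocount 0.1 FPKM) of each gene in the members (blue) and 8 other lists (dark grey), with list medians in orange, over the 5th to 95th percentile of expressed genes (grey band, -1.35 to 0.50) and their median (grey line). The members lie from -6.92 to -3.53, left of the band, and the abscission genes lie within it.

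Regulators that bind late cell cycle promoters differed among themselves too. Foxm1, which activates G2 and mitotic genes, had 7.62 FPKM in WT and 0.144 in KO (ratio 52.7), in a row that also names 4933413G19Rik. Lin9 and Lin54, subunits of the MuvB core of which Lin54 reads the CHR, had ratios of 4.67 (2.60 and 0.556 FPKM) and 2.80 (5.39 and 1.92 FPKM). The other MuvB subunits Lin37, Lin52 and Rbbp4 had ratios of 1.20, 1.37 and 1.32. Mybl2, the B-Myb that joins MuvB, had low values, 0.263 FPKM in WT and 0.176 in KO, and its interval of 0.958 to 2.37 included 1. Over these 7 genes the median log2 KO/WT was -0.44, with 3 past 2-fold lower.

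Kinetochore and replication genes serve other steps of the cell cycle. Among 24 kinetochore and checkpoint genes, 23 were more than 2-fold lower in KO, and log2 KO/WT had a median of -3.79. Examples were Nuf2 (7.69 and 0.0590 FPKM), Mad2l1 (22.2 and 1.64), Spc24 (19.9 and 2.19) and Spc25 (18.7 and 2.01), and Zw10, with a ratio of 1.08 that centring turned to 0.913, was the exception. Of 7 Mcm genes, the 6 of the MCM helicase, Mcm2 to Mcm7, were past 2-fold, and the median over the 7 was -2.87. Mcm6 had 27.2 and 1.11 FPKM (ratio 24.6) and Mcm5 21.8 and 0.967 (ratio 22.5). Mcm10, which is not a subunit of that helicase, had 14.5 and 18.9 (ratio 0.770). The ratio of Mcm6, the largest of this list, could not be ordered against that of Ect2, since its counting interval of 21.2 to 28.7 overlapped that of Ect2, and its log2 KO/WT of -4.50 lay within the members' range. With 1 library per genotype, differences between these lists were not tested.

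The tissue carried its defining markers in both libraries. The 11 hepatocyte markers, with Ttr and Apoa1 among them, summed to 31600 FPKM in WT and 35500 in KO, and none was at 0. Markers of other cells were also present. The summed FPKM was 59.7 in WT and 37.3 in KO for 7 macrophage markers, 56.0 and 40.5 for 6 endothelial markers, 87.8 and 59.9 for 6 stellate cell markers, and 29.8 and 25.7 for 5 cholangiocyte markers. It was 0.763 and 0.367 for 6 lymphocyte markers, and 296 and 252 for 6 erythroid markers, of which Epb4.2 was at 0 in KO. The sums rest mostly on abundant genes, such as Dcn among the stellate markers (62.6 and 46.9 FPKM) and Spp1 among the cholangiocyte markers (24.5 and 22.7). Single markers differed more. More than 2-fold lower in KO were Col1a1 (ratio 4.88), the cholangiocyte keratins Krt7 and Krt19 (3.11 and 3.08), Csf1r of macrophages (2.43), Lyve1 of endothelium (2.33), Cps1 of hepatocytes (2.15) and the low Cd3g of lymphocytes (2.12), all chosen after their values were seen. After centring, Lyve1, Cps1 and Cd3g had ratios of 1.97, 1.82 and 1.79. Cd3g rested on about 9 fragments in WT and 4 in KO (interval 0.59 to 9.4). Before centring, no marker averaging 0.1 FPKM or more was past 2-fold higher in KO. Alas2 and Fgb, also chosen after their values were seen, went the other way. Erythroid Alas2 reached 37.5 FPKM in KO against 20.6 in WT (ratio 0.551), and centring took it past 2-fold (0.467). Fgb of hepatocytes, at 4530 against 2700 (ratio 0.595), stayed short of 2-fold after centring (0.505). Of the 11 hepatocyte markers, 3 were lower in KO at any size. Of all genes averaging 0.1 FPKM or more, 13.4% were more than 2-fold lower in KO. The part of each cell type in the members' levels was not tested.

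The genes outside all lists whose log2 KO/WT lay nearest to the members' median of -5.36, among 7791 genes within their range of mean FPKM, were Iqgap3, Gm5593, E130306D19Rik, Ccna2 and Shcbp1. Iqgap3 had 5.46 FPKM in WT and 0.0223 in KO (ratio 245), Ccna2, the S and G2 phase cyclin, 15.3 and 0.227 (ratio 67.2), and Shcbp1 7.20 and 0.0462 (ratio 156). Their log2 values ran from -5.64 to -5.17. Gm5593 had 3.78 FPKM in WT and 0.00762 in KO (ratio 496), and E130306D19Rik 6.83 and 0.0475 (ratio 144). The ratios of the 5 genes thus ran from 67.2 to 496, and that of Gm5593 was above the members' largest, 246. The likeness is one of log2 values with the pseudocount, and it rests on 2 libraries.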

How the data were processed

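Hepatic RNA of 1 WT and 1 KO sample was sequenced. The labels give paired-end reads and the methods single-end reads. The authors aligned the reads with TopHat (2.0.0) to NCBI37 (mm9), assembled transcripts with Cufflinks (1.3.0) and estimated FPKM per locus with Cuffdiff. These FPKM are the values deposited, and whether quartile normalization was used is not given in the sources used here. The authors' columns of fold change, statistic, p-value and q-value compare the reads of both libraries and were not used.

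Of 38016 loci, 21 marked HIDATA were left out. Rows of a symbol were summed, a row naming several symbols was given to each, and septins written as dates were named by their place in GENCODE vM1 (NCBIM37). Starts are counted from 1. The worth of 1 fragment was the tallest peak, within a fixed low range, in the values of 3144 single-exon genes of at least 500 nt. Fragments of a gene were estimated from it and the protein-coding transcript with the most exons. The 95% counting intervals are exact binomial (Clopper-Pearson) and cover counting error only. Before log2, 0.1 FPKM was added as a pseudocount, so differences of low genes are understated, and lists used genes averaging 0.1 FPKM or more. A difference past 2-fold was counted, and no test was run, as there was 1 library per genotype.

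The steps were tested on simulated data and run in Python 3.11.15 with scipy 1.17.1, pandas 2.3.3 and numpy 2.4.6, with matplotlib 3.10.9 for plots. The members and lists were chosen with earlier results of these data known. Named were all members, Ppard, the midzone partners and MuvB regulators, of other division lists the 3 most abundant genes and those with the lowest and highest log2 KO/WT, and the 5 genes nearest to the members' median. Marker lists are given by sums, with the markers past 2-fold. Genes outside this rule are named as chosen after their values were seen. The protein motif search planned was not run, and proteins were not analysed here. Alternatives covered the pseudocount, scaling, fold, filter and handling of rows.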

Additional observations from a re-analysis of the deposited data

How the results depend on the processing

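No paired analysis was possible because each genotype had 1 library, and for that reason no library could be left out. Every member stayed more than 2-fold lower in KO under each scaling, row handling, status, filter and fold tried, the filter at a mean FPKM of 1 leaving 9 of 10. Each member had 1 row, marked OK and naming no other symbol, so row handling and status could not change its values. Among the 30 recomputed member ratios, those from the highest row only were therefore fixed in advance. The ratios rescaled by centring or by equal upper quartiles stayed inside their counting intervals. The members' median log2 KO/WT of -5.36 became -3.27 with a pseudocount of 1 FPKM and -6.51 with 0.01, as a larger pseudocount draws low values together. The medians with 1 and with 0.01 were -1.94 and -5.22 for the midzone partners, -2.21 and -4.87 for the spindle assembly genes, and -1.84 and -4.73 for the kinetochore genes. Keeping only genes averaging 1 FPKM or more, a filter chosen after seeing the data, leaves out Mybl2 and brought the late regulators' median from -0.44 to -0.94. With expressed genes centred on their median, every KO level was multiplied by 1.18 before the pseudocount was added. The medians then moved to -0.09 for the ring genes, -0.24 for the late regulators and 0.13 for the abscission genes, a change of sign. Equal upper quartiles gave -0.13 for the ring genes and 0.09 for the abscission genes. Either scaling left 1 of the Ran and importin genes past 2-fold in place of 3. The share of genes more than 2-fold lower in KO was 21.0% of genes above 0, 13.4% of genes averaging 0.1 FPKM or more and 11.5% within the members' range of mean FPKM, beside 8.69% of expressed genes. Depth limits the KO levels, which rested on 4 to 128 estimated fragments.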
